A study of Mus musculus with 9 samples.

Results

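Interferon-induced antiviral genes were followed in the luminal epithelium of the mouse uterus, the cell layer that meets the embryo first. The members were chosen by symbol: the Ifit, Ifitm, Oas, Isg, Gbp, Mx, Irgm, Iigp and Trim30 families, Ifi followed by a digit, Irf followed by a digit, Igtp, Stat2, Usp18, Rsad2, Bst2, Xaf1, Cmpk2, Ddx58, Dhx58, Ifih1, Rtp4, Zbp1, Parp14 and Eif2ak2, among others. The rule found 78 of the 15158 genes of the deposited table, and all 78 were found in the GENCODE M21 annotation of mm10. Of these, 64 reached 1 FPKM (a fragment count divided by gene length and library size) in at least 3 libraries and were tested, and 14 were not. The 14 included 4 guanylate-binding protein genes and 4 p200 genes, and their highest value in any library was between 0.302 FPKM (Gbp10, Trim30b) and 13.5 FPKM (Gbp2b in Wnt7acre replicate 2). A symbol does not make a gene interferon-induced: the rule also took in Ifitm5, known from bone, and Isg20l2, a ribosomal RNA exonuclease.

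Interferons are secreted signals that cells make when their sensors meet foreign nucleic acid. Type I and III interferons act through receptor-bound kinases on STAT and IRF factors, which bind the interferon-stimulated response element (ISRE), while type II interferon acts through STAT pairs on the GAS element. The genes so induced encode proteins that block viral entry, RNA, translation and budding. The uterine epithelium is known to make interferon epsilon constitutively, and in ruminants the endometrial interferon response is the maternal answer to the conceptus.

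There were 3 genotypes with 3 libraries each, all from laser-captured luminal epithelium on pregnancy day 4 of females housed to 8 weeks of age. ePRBoe mice (Wnt7acre/+PgrBLsL/+) carried extra progesterone receptor isoform B and ePRAoe mice (Wnt7acre/+PgrALsL/+) extra isoform A, and the Wnt7acre mice carried the recombinase alone, which both other genotypes carry as well. Wnt7a drives the recombinase in uterine epithelium, so it is not limited to the luminal layer. The labels number the bioreplicates but name no animals, so a p-value here reflects variation among samples that may be partly technical. Pgr stood at 38.1, 38.3 and 45.9 FPKM in ePRBoe replicates 1 to 3, at 41.7, 49.5 and 42.8 FPKM in ePRAoe and at 17.4, 3.82 and 6.62 FPKM in Wnt7acre, higher in every overexpressing library than in every Wnt7acre one.

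All 15 luminal epithelium markers were detected, with a summed level of 2110 to 2360 FPKM in ePRBoe, 1740 to 2450 FPKM in ePRAoe and 2180 to 2440 FPKM in Wnt7acre. Other cell types differed between genotypes. The 18 stroma markers summed to 549 to 695 FPKM in ePRBoe, 308 to 514 FPKM in ePRAoe and 131 to 177 FPKM in Wnt7acre. The 15 immune cell markers summed to 409 to 490 FPKM in ePRBoe, 135 to 178 FPKM in ePRAoe and 202 to 418 FPKM in Wnt7acre. No marker of either list was at 0 in all libraries. Of 10 plasmacytoid dendritic cell markers (interferon-producing immune cells) 3 could be tested and 0 passed in limma in any comparison (1 had an unadjusted p under 0.05 in ePRBoe against Wnt7acre, and 3 in each of the others). Over all genes 16.2% passed in ePRAoe, 8.89% in ePRBoe and 0.324% between them, so 0 among 3 is near these shares. The markers' median log2 fold change was -0.66 in ePRAoe and 0.32 in ePRBoe against Wnt7acre, and 0.86 in ePRBoe against ePRAoe. As in any bulk sample, fewer cells of a type and less RNA per cell cannot be told apart. The plot of summed levels shows the members beside these lists: the members summed to 2370 to 3840 FPKM in ePRBoe, 1950 to 2870 FPKM in ePRAoe and 4870 to 5360 FPKM in Wnt7acre. Much of this sum came from the 6 Ifitm genes. They summed to 1420 to 2120 FPKM in ePRBoe, 1060 to 1560 FPKM in ePRAoe and 2910 to 3430 FPKM in Wnt7acre. The gap between the sums therefore does not describe the whole set.

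**Figure D1:**
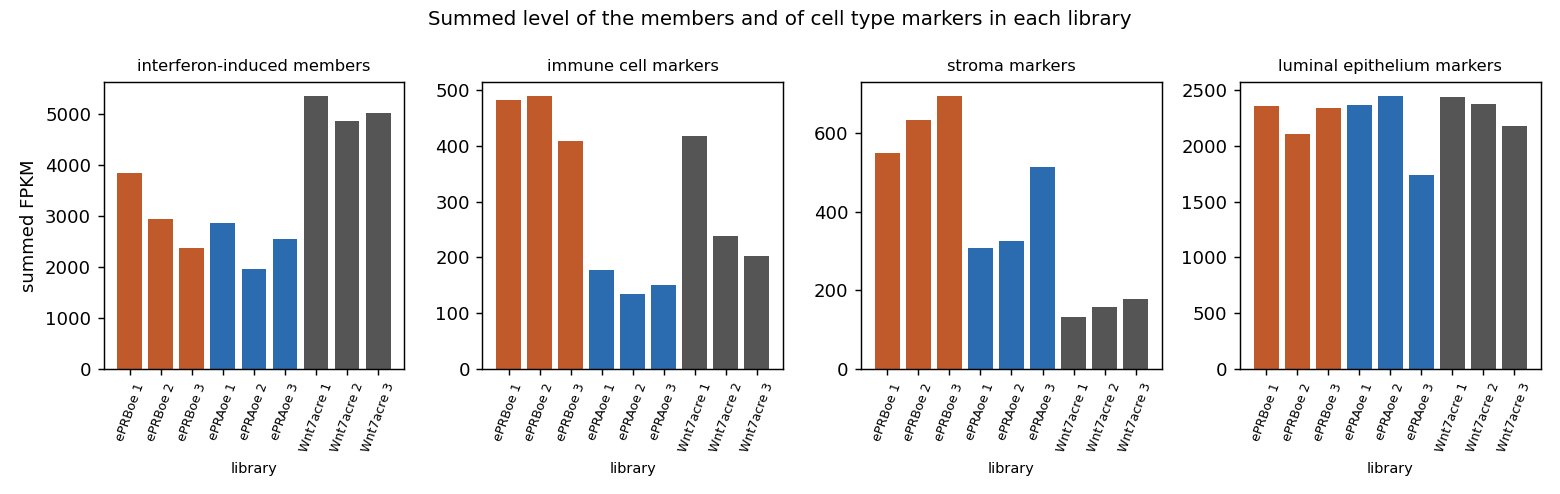
Bars give the summed FPKM (linear axis from 0) of the 78 members, 15 immune cell markers, 18 stroma markers and 15 luminal epithelium markers in each of the 9 libraries, coloured by genotype. The members' sum is at most 3840 FPKM in the ePRBoe and ePRAoe libraries and at least 4870 FPKM in the Wnt7acre libraries, while immune markers sum to 409 to 490 FPKM in ePRBoe, a range that Wnt7acre replicate 1 (418 FPKM) also reaches. Much of the members' sum is that of the 6 Ifitm genes (2910 to 3430 FPKM in Wnt7acre).

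The first comparison set ePRAoe, the genotype with surplus isoform A, against Wnt7acre. The interferon-induced genes as a body stood lower in ePRAoe: 25 of the 64 tested members fell and 1 rose, against 8.98% of all tested genes that fell and 7.2% that rose. The members' median log2 fold change was -1.02, against -0.03 over all genes, and 57 of 64 were below 0, against 53.0% of all genes. The deepest falls were in Ifit1bl1, Ifit3b, Ifit3, Ifitm6, Rsad2 and Oas3, each by more than 3 on the log2 scale. All fold changes are on the scale of log2(FPKM + 1), and a call means an adjusted p under 0.05 in limma, adjusted over all 12347 genes tested. In 38 members all 3 ePRAoe libraries lay below all 3 Wnt7acre libraries, and 16.2% of all tested genes had no overlap in that direction. Immune cell markers moved the same way (4 of 15 fell, median -0.71), as did the gland list (2 of 5 fell, 1 rose), and stroma markers the other way (12 of 18 rose, median 1.30); their part in the members' fall was not tested.

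The second set ePRBoe, the genotype with surplus isoform B, against Wnt7acre. Here 6 of the 64 members fell (Ifit1bl1, Ifit3b, Ifit3, Rsad2, Gbp2 and Gbp3) and Irf8 rose, against 2.48% of all tested genes that fell, 6.41% that rose and 8.89% in either direction. The median over the members was -0.38, against 0.10 over all genes, and 44 of 64 were below 0, against 40.5% of all genes. In 24 members all 3 ePRBoe libraries lay below all 3 Wnt7acre libraries, against 16.3% of all genes. This comparison and that of ePRAoe share the Wnt7acre libraries, so the values of a gene in both are given side by side and not as independent results. Immune cell markers were higher in ePRBoe (6 of 15 rose, 0 fell, median 0.83), opposite to those 6 members. Stroma markers (15 of 18 rose), endothelial markers (2 of 7 rose, median 1.07) and smooth muscle markers (1 of 4 rose, median 1.47) were higher too; the part of these cell types in the members' values was not tested. Without Wnt7acre replicate 3, the only Wnt7acre library of the run that holds all ePRBoe libraries, all 7 calls were lost. The members' median was then 0.04, and 1 immune marker (Nkg7), 11 stroma markers and 0 endothelial markers still passed in limma as higher. In that fit ePRBoe was tied to Wnt7acre only through ePRAoe replicate 2. The 6 falls kept their direction in every leave-one-out fit. At their weakest they were -3.52 (Ifit1bl1), -3.33 (Ifit3b), -2.37 (Ifit3), -1.67 (Rsad2), -1.14 (Gbp2) and -1.05 (Gbp3).

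**Figure D2:**
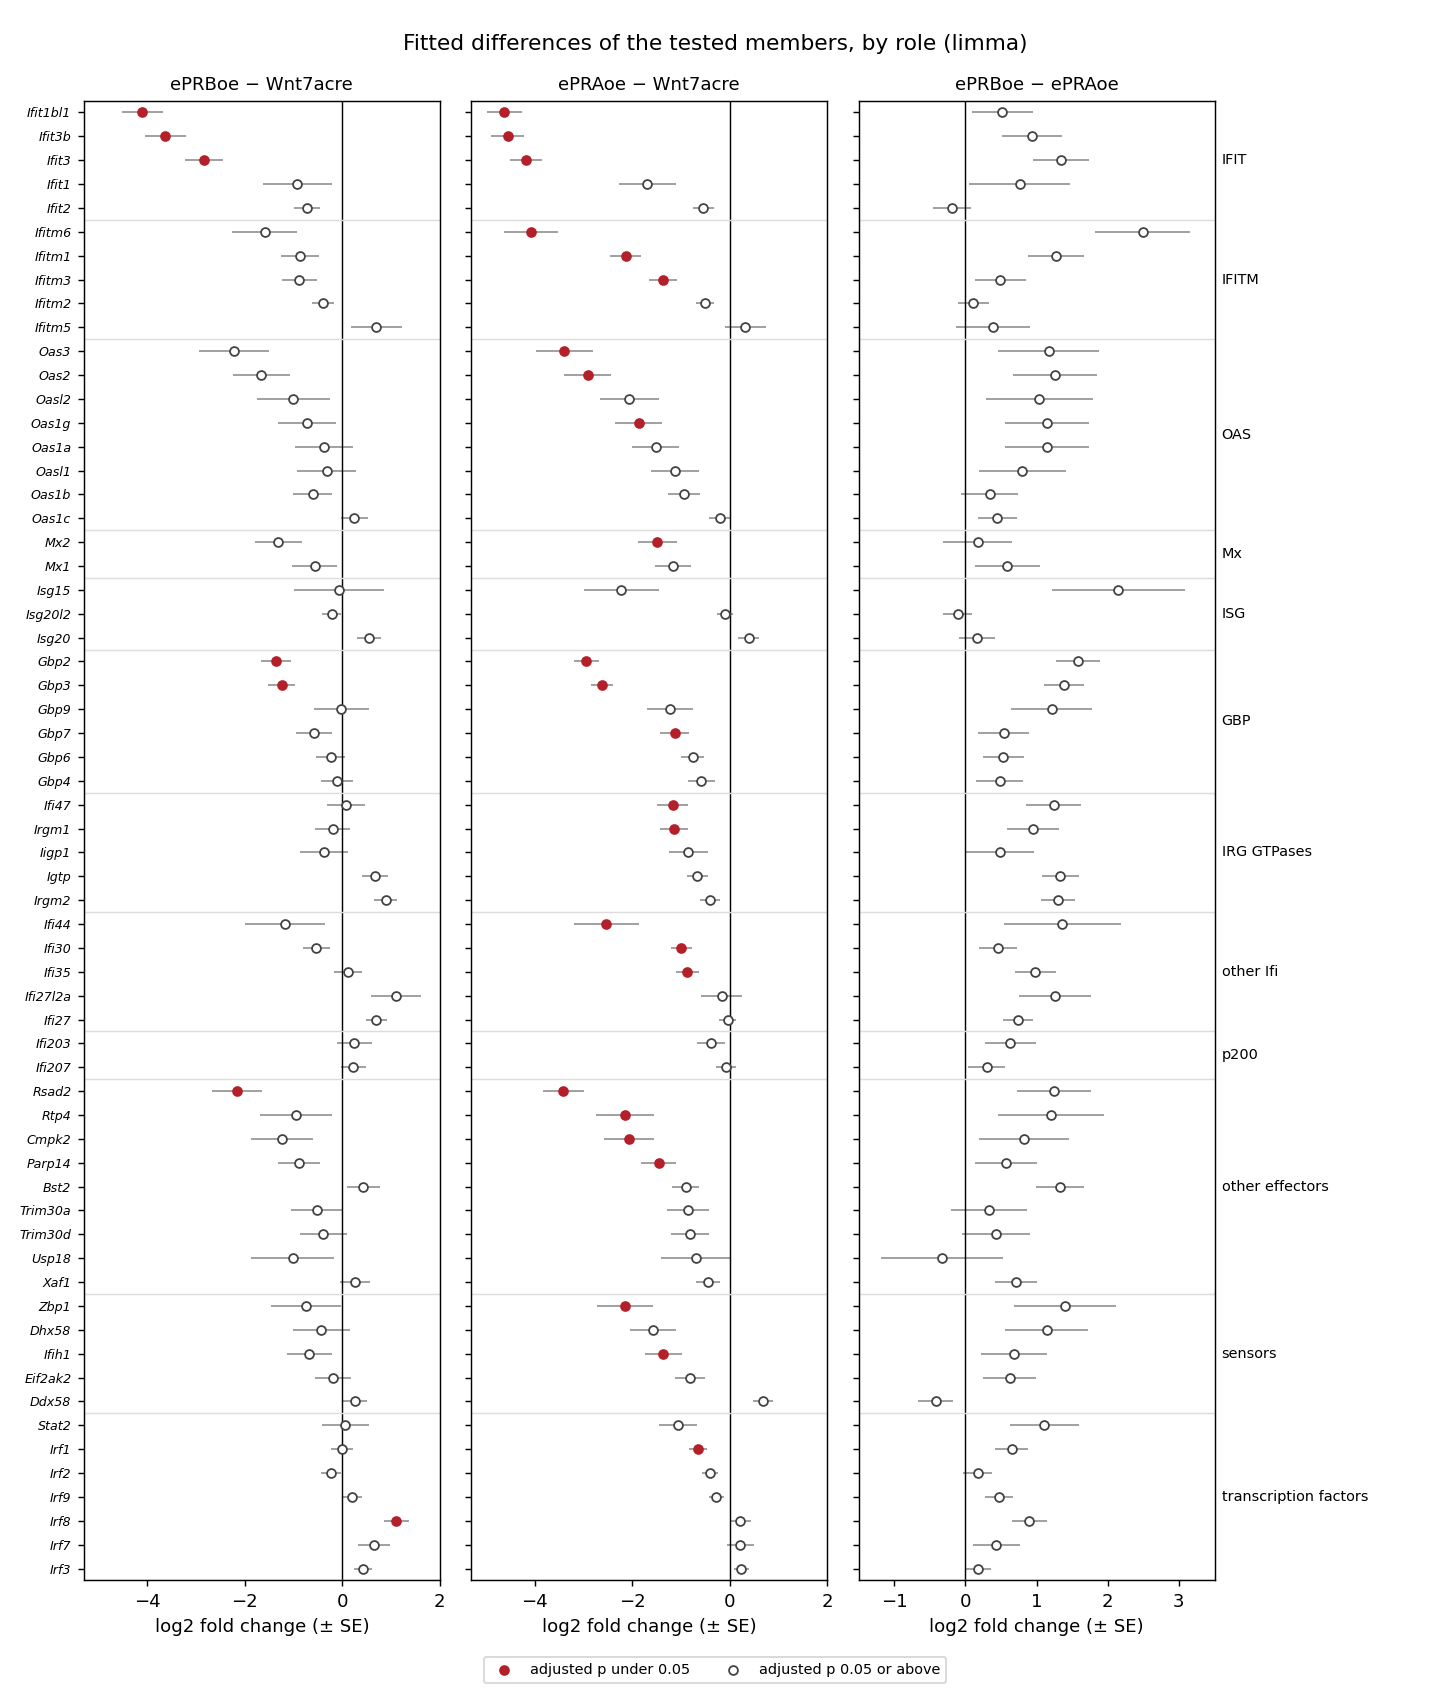
Points give the log2 fold change (horizontal axis, with bars of 1 SE) of 62 of the 64 tested members, grouped by role, for ePRBoe minus Wnt7acre, ePRAoe minus Wnt7acre and ePRBoe minus ePRAoe; filled points passed an adjusted p of 0.05. Filled points number 7, 25 and 0 in the 3 panels, and those left of 0 are deepest in the IFIT genes.

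The IFIT proteins bind viral RNA and block its translation, and their genes lie side by side on chromosome 19, from 34550694 to 34650009 (mm10). Ifit3 (ENSMUSG00000074896.3) had 5.74, 4.83 and 2.02 FPKM in ePRBoe, 1.10, 0.647 and 3.23 FPKM in ePRAoe, and 35.4, 56.9 and 40.1 FPKM in Wnt7acre. Every overexpressing library was below every Wnt7acre library, and the lowest ePRBoe library overlapped ePRAoe. Ifit3 fell by 2.83 in ePRBoe (SE 0.39, 7.12-fold, adjusted p = 0.00883) and by 4.18 in ePRAoe (SE 0.32, 18.1-fold, adjusted p = 0.00116). Ifit3b, its neighbour and near copy, had 3.40, 1.66 and 0.869 FPKM in ePRBoe, 0.756, 0.340 and 0.831 FPKM in ePRAoe, and 24.5, 56.9 and 36.8 FPKM in Wnt7acre, a fall of 3.63 (adjusted p = 0.00555) in ePRBoe and of 4.55 (0.00116) in ePRAoe. Of the 50-base words in Ifit3 exons, 51.2% are also in Ifit3b, so the split of reads between the pair is uncertain. Ifit1bl1 showed the same order in its own sequence, 6.45% of it shared with other genes: 1.54, 0.480 and 0.448 FPKM in ePRBoe, then 0, 0 and 0.576 FPKM in ePRAoe, and 11.3, 51.3 and 35.9 FPKM in Wnt7acre. It fell by 4.10 in ePRBoe (adjusted p = 0.00458) and by 4.62 in ePRAoe (0.00116).

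The other tested IFIT genes at the same locus had smaller differences. Ifit1, the family member with the highest level, had 38.3, 31.4 and 7.72 FPKM in ePRBoe, 26.2, 9.19 and 22.7 FPKM in ePRAoe, and 110, 35.1 and 53.7 FPKM in Wnt7acre. It was below the Wnt7acre range in every ePRAoe library yet did not pass (-1.69, SE 0.58, adjusted p = 0.089), nor did it in ePRBoe (-0.92, SE 0.71, 0.465). Ifit2 did not pass in either comparison (-0.54 and adjusted p = 0.14 in ePRAoe, -0.73 and 0.14 in ePRBoe). In ePRAoe the 3 IFIT calls passed with any 1 library left out; in ePRBoe all 3 were lost without Wnt7acre replicate 3 (adjusted p = 0.112 for Ifit3, 0.076 for Ifit3b and 0.0613 for Ifit1bl1).

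Promoter windows of some members were picked because they match the core of the element through which STAT and IRF factors act. That these windows hold a match is therefore no result. The ISRE core searched for was GAAA, any 2 bases and GAAA again, or its reverse complement (TTTC, any 2 bases, TTTC), so both strands were read, in RefSeq promoters of GRCm38.p6 from 250 bases before to 50 after the start. The windows of 80 bases below are on the strand of the gene, with matches in capitals; Oas1c is shown as a member with a match that did not pass in either genotype.
Ifit3: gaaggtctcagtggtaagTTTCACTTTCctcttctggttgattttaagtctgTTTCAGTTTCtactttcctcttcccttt
Ifit3b: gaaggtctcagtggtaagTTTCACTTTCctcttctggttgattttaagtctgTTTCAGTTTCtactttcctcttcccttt
Ifit1bl1: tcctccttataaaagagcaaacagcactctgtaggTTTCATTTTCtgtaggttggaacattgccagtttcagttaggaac
Rsad2: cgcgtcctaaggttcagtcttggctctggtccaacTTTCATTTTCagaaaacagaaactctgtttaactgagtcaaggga
Gbp3: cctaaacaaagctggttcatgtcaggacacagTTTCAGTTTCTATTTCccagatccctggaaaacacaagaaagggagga
Oas1c: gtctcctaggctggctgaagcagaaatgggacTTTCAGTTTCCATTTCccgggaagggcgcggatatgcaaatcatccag

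The windows lie at chr19:34583355-34583434 (Ifit3, forward strand), chr19:34607751-34607830 (Ifit3b, forward), chr19:34602028-34602107 (Ifit1bl1, reverse), chr12:26456528-26456607 (Rsad2, reverse), chr3:142559967-142560046 (Gbp3, forward) and chr5:120812581-120812660 (Oas1c, reverse). The Ifit3 and Ifit3b windows are the same in all 80 bases, each with 2 matches, which begin 156 and 122 bases before the start in Ifit3 and 188 and 154 bases in Ifit3b. In Gbp3 and Oas1c a pair of matches overlaps. Promoters were matched for 58 of the 78 members, and 33 of these 58 genes (56.9%) held the core, against 3.99% of the 27025 genes with a promoter. Among members that fell in ePRAoe 12 of 20 (60.0%) held it, and among tested members that did not fall 16 of 27 (59.3%). All 6 members that fell in ePRBoe held it. The GAS core, TTCNNNGAA, was found in 15 of 58 members (25.9%) and in 9.55% of all genes; the members that fell in ePRBoe had 0 of 6. A match describes letters in a window and is not a bound site.

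The IFITM proteins sit in membranes and hinder the fusion of viruses with the cell, and their genes gave the highest levels of the set. Ifitm3, the highest member, had 1010, 746 and 582 FPKM in ePRBoe, 842, 452 and 617 FPKM in ePRAoe, and 1510, 1600 and 1670 FPKM in Wnt7acre. In ePRAoe it fell by 1.37 (SE 0.29, 2.58-fold, adjusted p = 0.0201); in ePRBoe, whose libraries also lay below all Wnt7acre libraries, it did not pass (-0.88, SE 0.36, 0.172). Ifitm1 (chromosome 7, 140967221 to 140969825, forward strand) had 350, 198 and 199 FPKM in ePRBoe, 149, 74.0 and 203 FPKM in ePRAoe, and 499, 659 and 581 FPKM in Wnt7acre. The fall of Ifitm1 in ePRAoe was 2.13 (SE 0.32, 4.38-fold, adjusted p = 0.00592), and the value in ePRBoe was -0.86 (0.216). Ifitm6 varied widely between ePRAoe libraries: 82.9, 38.6 and 50.3 FPKM in ePRBoe, 15, 4.36 and 45.4 FPKM in ePRAoe, and 220, 281 and 307 FPKM in Wnt7acre. In ePRAoe it fell by 4.08 (SE 0.55, 16.9-fold, adjusted p = 0.00447), while in ePRBoe the value was -1.59 (SE 0.67, 0.186). Ifitm2, at 535 to 867 FPKM throughout, did not pass (-0.51 and adjusted p = 0.101 in ePRAoe), and 48.5% of its 50-base words occur in other annotated genes. Ifitm1 and Ifitm6 passed in ePRAoe with any 1 library left out, and Ifitm3 was lost without Wnt7acre replicate 2 (0.0889) or 3 (0.0964) or ePRAoe replicate 2 (0.101) or 3 (0.0896).

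The OAS proteins sense double-stranded RNA and, in their catalytic members, activate the RNase that degrades it. All 8 OAS genes were tested, and 3 fell in ePRAoe, against 8.98% of all genes. In ePRBoe 0 passed in limma and 2 had an unadjusted p under 0.05; with 2.48% of all genes falling there, a count of 0 among 8 is near that share. Oas2 (chromosome 5, 120730333 to 120749853, reverse strand) had 10.1, 5.15 and 2.13 FPKM in ePRBoe, 5.46, 0.768 and 7.47 FPKM in ePRAoe, and 37.1, 39.8 and 25.7 FPKM in Wnt7acre. Oas3 had 12.9, 6.62 and 1.71 FPKM in ePRBoe, 2.45, 1.27 and 5.62 FPKM in ePRAoe, and 43.0, 33.3 and 38.6 FPKM in Wnt7acre. For both genes each overexpressing library lay below each Wnt7acre library, and ePRBoe overlapped ePRAoe. Oas2 fell by 2.91 in ePRAoe (SE 0.48, 7.53-fold, adjusted p = 0.00816) and Oas3 by 3.39 (SE 0.58, 10.5-fold, 0.00945); in ePRBoe their values were -1.66 (0.126) and -2.22 (0.0985). Oas1g had 7.64, 4.12 and 1.21 FPKM in ePRBoe, 2.79, 0.808 and 3.09 FPKM in ePRAoe, and 16.9, 7.64 and 7.75 FPKM in Wnt7acre, a fall of 1.87 in ePRAoe (adjusted p = 0.0382), though 45.7% of its 50-base words are shared, mostly with Oas1a. Oasl2, the highest of the family, had 77.1, 50.7 and 15.3 FPKM in ePRBoe, 71.0, 11.2 and 28.8 FPKM in ePRAoe, and 173, 81.4 and 130 FPKM in Wnt7acre. It lay below Wnt7acre in every overexpressing library and did not pass (-2.06, SE 0.61, adjusted p = 0.0591 in ePRAoe). Without Wnt7acre replicate 3 or ePRAoe replicate 2, Oas2 (0.057 and 0.056) and Oas3 (0.0681 and 0.068) were lost; Oas1g was lost in 7 of 9 such fits, up to 0.173 without Wnt7acre replicate 3.

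**Figure D3:**
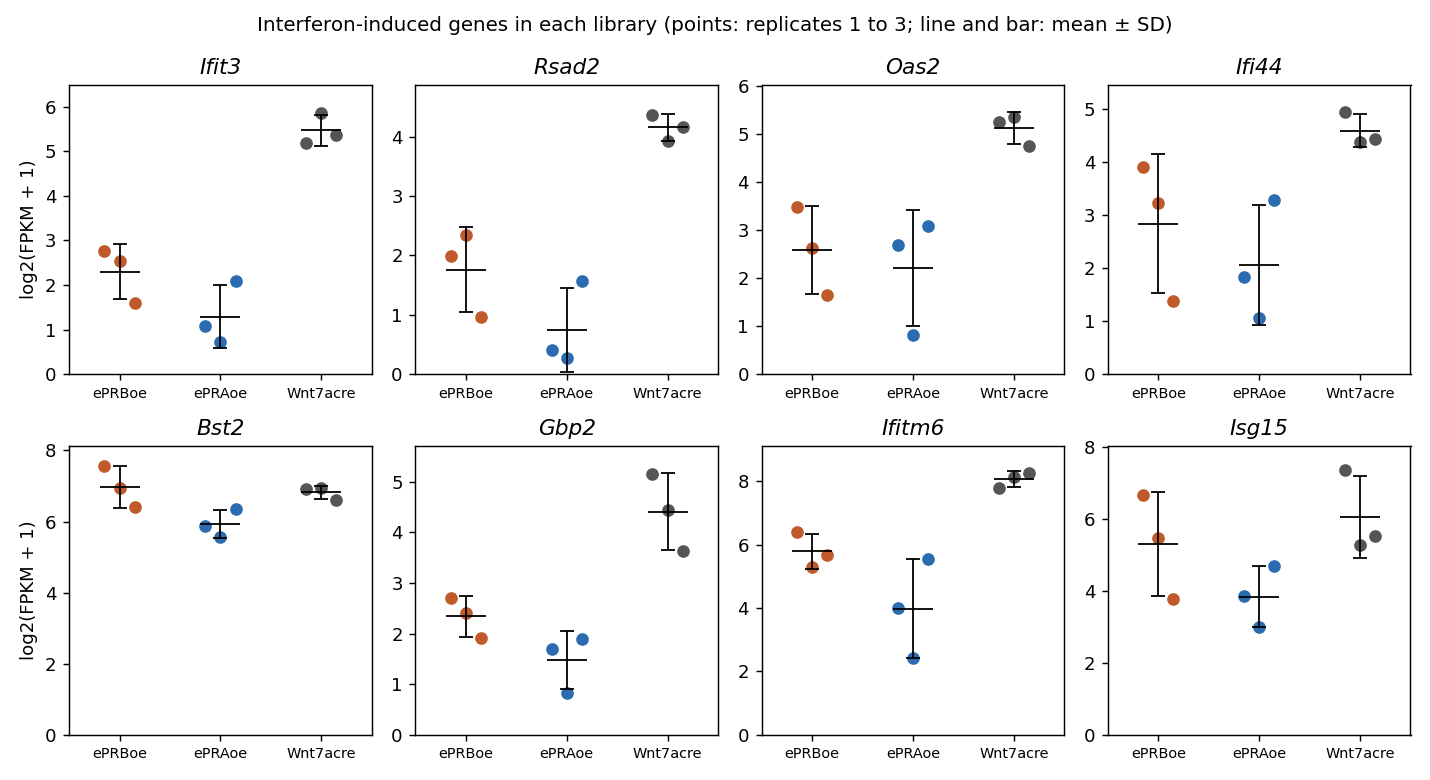
Each panel plots log2(FPKM + 1) of 1 gene by genotype (ePRBoe, ePRAoe, Wnt7acre), with a point per library and a line and bar for the mean ± SD of 3 libraries. Ifit3, Rsad2, Oas2, Gbp2 and Ifitm6 show no overlap with Wnt7acre in either overexpressing genotype, while Bst2 and Isg15 in ePRBoe overlap Wnt7acre.

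Among the other effectors, Rsad2 makes a nucleotide analogue that ends viral RNA chains, and Cmpk2, its neighbour on chromosome 12, is a mitochondrial nucleotide kinase. Rsad2 (26442746 to 26456452, reverse strand) had 2.95, 4.08 and 0.944 FPKM in ePRBoe, 0.321, 0.201 and 1.95 FPKM in ePRAoe, and 19.7, 14.2 and 17.0 FPKM in Wnt7acre. It fell by 2.16 in ePRBoe (SE 0.52, 4.48-fold, adjusted p = 0.0452) and fell by 3.41 in ePRAoe (SE 0.43, 10.7-fold, 0.00371). The ePRAoe call held with any 1 library left out, and the ePRBoe call was lost in 7 of 9 such fits, up to 0.344 without Wnt7acre replicate 3. Cmpk2 had 4.91, 3.60 and 1.17 FPKM in ePRBoe, 1.53, 0.739 and 6.77 FPKM in ePRAoe, and 17.4, 10.6 and 10.6 FPKM in Wnt7acre, again without overlap with Wnt7acre. It fell by 2.06 in ePRAoe (adjusted p = 0.0342), and the ePRBoe value was -1.24 (0.267).

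Bst2, the tether that holds budding virus on the cell, had 189, 122 and 83.1 FPKM in ePRBoe, 57.4, 46.0 and 80.2 FPKM in ePRAoe, and 119, 121 and 97.2 FPKM in Wnt7acre. All ePRAoe libraries lay below Wnt7acre and ePRBoe spanned it, and neither comparison passed (-0.90, SE 0.28, adjusted p = 0.069 in ePRAoe; 0.43, SE 0.34, 0.483 in ePRBoe). Bst2 passed as lower in ePRAoe without ePRBoe replicate 1 (0.0322) or 3 (0.0364). Parp14, an ADP-ribosyltransferase, had 15.7, 10.7 and 4.72 FPKM in ePRBoe, 15, 5.41 and 9.74 FPKM in ePRAoe, and 39.8, 26.0 and 19.9 FPKM in Wnt7acre, a fall of 1.46 in ePRAoe (adjusted p = 0.0311). Rtp4, a receptor-transporting protein, had 35.7, 26.0 and 6.09 FPKM in ePRBoe, 27.6, 4.74 and 15.6 FPKM in ePRAoe, and 83.7, 51.0 and 52.6 FPKM in Wnt7acre, a fall of 2.15 in ePRAoe (SE 0.60, 0.0499). Neither gene passed in ePRBoe (-0.89 and 0.249 for Parp14, -0.95 and 0.473 for Rtp4). Usp18, the protease that removes ISG15 and damps the receptor, was among the members that did not pass, at 22.1, 15.6 and 5.41 FPKM in ePRBoe, 5.11, 19.2 and 30.3 FPKM in ePRAoe, and 42.0, 15.3 and 22 FPKM in Wnt7acre. Its ePRAoe libraries overlapped the Wnt7acre range (-0.69, SE 0.71, adjusted p = 0.552). The Parp14 and Rtp4 calls were each lost in 7 of 9 leave-one-out fits, up to 0.147 and 0.234, and Cmpk2 in 5, up to 0.171.

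The dynamin-like Mx GTPases trap viral nucleocapsids. Mx2, annotated as a polymorphic pseudogene, had 1.57, 2.19 and 0.251 FPKM in ePRBoe, 1.69, 0.533 and 1.32 FPKM in ePRAoe, and 7.40, 2.70 and 5.77 FPKM in Wnt7acre. In ePRAoe it fell by 1.49 (SE 0.40, adjusted p = 0.0437; up to 0.206 in the 7 leave-one-out fits that lost it) and did not pass in ePRBoe (-1.31, 0.143). Mx1 was at -1.16 in ePRAoe (0.0748). The ISG group was mixed. Isg20, an exonuclease, had 202, 198 and 167 FPKM in ePRBoe, 208, 147 and 195 FPKM in ePRAoe, and 181, 99.4 and 148 FPKM in Wnt7acre, with no call (0.55 and adjusted p = 0.221 in ePRBoe, 0.39 and 0.241 in ePRAoe). Isg15, the ubiquitin-like modifier, had 101, 43.6 and 12.8 FPKM in ePRBoe, 13.5, 6.94 and 25.0 FPKM in ePRAoe, and 165, 38.3 and 45.7 FPKM in Wnt7acre. Its libraries differed widely within a genotype, and -2.22 in ePRAoe (SE 0.76, adjusted p = 0.0868) did not pass. All ePRAoe libraries nevertheless lay below all Wnt7acre libraries. Isg15 passed as lower in ePRAoe without ePRBoe replicate 3 (0.0428), and over all settings run its adjusted p was 0.0428 to 0.269.

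The guanylate-binding proteins coat intracellular pathogens, and their genes form a cluster on chromosome 3 (142493978 to 142638008) and another on chromosome 5 (105014150 to 105293698). All 3 tested genes of the chromosome 3 cluster fell in ePRAoe and 2 fell in ePRBoe, against 8.98% and 2.48% of all tested genes. On chromosome 5, 0 of 3 (Gbp4, Gbp6 and Gbp9) passed in limma in either genotype, a count near those shares. There 2 had an unadjusted p under 0.05 in ePRAoe and 0 in ePRBoe. Gbp4 and Gbp9 overlap on the same strand, as do Gbp6 and Gm43302, and 70.7% of the Gbp6 sequence is shared with other genes. On chromosome 3, Gbp7 overlaps the pseudogene Gm43802. The highest group means were 1.11 FPKM (Gbp4, ePRBoe), 1.91 FPKM (Gbp6, Wnt7acre) and 5.32 FPKM (Gbp9, Wnt7acre). These counts therefore cannot show that the clusters differed. Gbp2 had 5.51, 4.30 and 2.76 FPKM in ePRBoe, 2.23, 0.774 and 2.73 FPKM in ePRAoe, and 34.6, 20.6 and 11.4 FPKM in Wnt7acre. Gbp3 had 7.18, 4.43 and 3.51 FPKM in ePRBoe, 3.51, 1.10 and 3.73 FPKM in ePRAoe, and 24.8, 26.6 and 13.7 FPKM in Wnt7acre. In both genes the 6 overexpressing libraries were below the lowest Wnt7acre library. Gbp2 fell by 1.36 in ePRBoe (SE 0.31, 2.57-fold, adjusted p = 0.039) and by 2.94 in ePRAoe (SE 0.26, 7.65-fold, 0.0017), and Gbp3 by 1.24 (SE 0.28, 2.35-fold, 0.0372) and 2.62 (SE 0.23, 6.16-fold, 0.0017). Both ePRAoe calls held with any 1 library left out. In ePRBoe, Gbp2 was lost without Wnt7acre replicate 3 (0.195), ePRBoe replicate 2 (0.0944) or 3 (0.087) or ePRAoe replicate 2 (0.127), and Gbp3 in 6 of 9 such fits, up to 0.278 without Wnt7acre replicate 3. Gbp7 had 9.68, 7.53 and 4.57 FPKM in ePRBoe, 8.04, 3.57 and 7.92 FPKM in ePRAoe, and 20.7, 11.3 and 13.3 FPKM in Wnt7acre. It fell by 1.13 in ePRAoe (adjusted p = 0.0399, up to 0.191 in the 6 leave-one-out fits that lost it).

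The immunity-related GTPases act on the vacuoles of intracellular parasites and are known above all as targets of type II interferon. In ePRAoe, 2 of 5 fell, against 8.98% of all tested genes. Ifi47 had 15.5, 14.0 and 6.80 FPKM in ePRBoe, 17.2, 3.21 and 6.61 FPKM in ePRAoe, and 34.7, 11.6 and 13.7 FPKM in Wnt7acre. Irgm1 had 27.0, 23.6 and 12.7 FPKM in ePRBoe, 13.9, 9.86 and 12 FPKM in ePRAoe, and 45.0, 19.0 and 23.6 FPKM in Wnt7acre. The ePRAoe and Wnt7acre values of Ifi47 overlap across runs and those of Irgm1 do not. Ifi47 fell by 1.17 (adjusted p = 0.0453) and Irgm1 by 1.14 (0.0379), with ePRBoe at 0.07 (0.928) and -0.20 (0.777). The calls were lost in 8 and 7 of 9 leave-one-out fits (up to 0.215 and 0.146). Igtp, the highest of the group, had 42.8, 36.3 and 23.9 FPKM in ePRBoe, 26.7, 12.8 and 14.9 FPKM in ePRAoe, and 47.5, 21.8 and 20.4 FPKM in Wnt7acre, and passed in neither comparison (0.67 and adjusted p = 0.152 in ePRBoe, -0.66 and 0.0732 in ePRAoe). Igtp and Irgm2 overlap on 1 strand of chromosome 11, so their reads may have been counted in part for either or for neither.

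In the remaining Ifi genes, Ifi44, whose protein forms filaments near microtubules, had 13.9, 8.39 and 1.59 FPKM in ePRBoe, 2.54, 1.07 and 8.73 FPKM in ePRAoe, and 29.7, 19.8 and 20.7 FPKM in Wnt7acre. It lay below Wnt7acre in every overexpressing library and fell by 2.53 in ePRAoe (SE 0.67, 5.79-fold, adjusted p = 0.0417); the ePRBoe value was -1.18 (0.421). Ifi30, a lysosomal thiol reductase for antigen processing, had 74.3, 47.1 and 47.4 FPKM in ePRBoe, 46.4, 37.7 and 41.8 FPKM in ePRAoe, and 68.0, 105 and 84.3 FPKM in Wnt7acre. Ifi35, which binds NMI, had 34.4, 24.1 and 16.4 FPKM in ePRBoe, 28.9, 11.4 and 16.2 FPKM in ePRAoe, and 50.2, 31.5 and 22.4 FPKM in Wnt7acre. They fell in ePRAoe by 0.99 (adjusted p = 0.0235) and 0.87 (0.0473) and did not pass in ePRBoe (-0.53 and 0.269, 0.11 and 0.847). Leaving out libraries lost Ifi44 in 7 fits (up to 0.194), Ifi30 in 4 (up to 0.123) and Ifi35 in 7 (up to 0.17). The p200 genes, which bind DNA, were low: 4 of 6 were not tested. Ifi203, the highest of them, had 1.49, 2.64 and 0.870 FPKM in ePRBoe, 0.451, 0.528 and 0.933 FPKM in ePRAoe, and 1.24, 0.793 and 1.35 FPKM in Wnt7acre, with no call (0.25 and 0.71 in ePRBoe, -0.38 and 0.413 in ePRAoe).

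Of the 5 sensors, 2 fell in ePRAoe and 0 in ePRBoe in limma, where 0 also had an unadjusted p under 0.05. Over all tested genes 8.98% fell in ePRAoe and 2.48% in ePRBoe, so a count of 0 among 5 in ePRBoe is near that share. Ifih1 (MDA5, a sensor of long double-stranded RNA) had 12.6, 8.10 and 3.87 FPKM in ePRBoe, 7.80, 3.38 and 7.82 FPKM in ePRAoe, and 23.7, 13.3 and 15.2 FPKM in Wnt7acre. Zbp1, a sensor of Z-form nucleic acid, had 18.7, 7.49 and 2.78 FPKM in ePRBoe, 14.7, 1.27 and 5.42 FPKM in ePRAoe, and 59.1, 15 and 19.7 FPKM in Wnt7acre. Every ePRAoe library was below every Wnt7acre library for both genes, and Zbp1 in ePRBoe overlapped Wnt7acre. Ifih1 fell by 1.36 (adjusted p = 0.0488) and Zbp1 by 2.15 (0.0445), and each lost its call in 7 of 9 leave-one-out fits (up to 0.219 and 0.215). Ddx58 (RIG-I), the sensor with the highest level, had 83, 80.6 and 61.9 FPKM in ePRBoe, 136, 108 and 72.2 FPKM in ePRAoe, and 121, 35.9 and 57.7 FPKM in Wnt7acre. It was at 0.68 in ePRAoe (SE 0.20, adjusted p = 0.055) and 0.26 in ePRBoe (0.553), neither of which passed. Ddx58 passed as higher in ePRAoe with median-of-ratios factors (0.73, adjusted p = 0.0463), with quantile normalization (0.74, 0.0414), and without Wnt7acre replicate 1 (0.94, 0.0135) or ePRAoe replicate 1 (0.94, 0.0133), a direction opposite to most members; over all settings run its adjusted p was 0.0133 to 0.291.

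Of the 9 tested transcription factors, 1 fell and 1 rose in ePRAoe, and 1 rose in ePRBoe. Counts of 1 among 9 are near the shares of all genes (8.98% lower and 7.2% higher in ePRAoe, 6.41% higher in ePRBoe). Irf1, the activator induced by type II interferon, had 7.19, 7.06 and 5.68 FPKM in ePRBoe, 9.80, 3.39 and 4.80 FPKM in ePRAoe, and 11.6, 9.05 and 7.45 FPKM in Wnt7acre. It fell by 0.65 in ePRAoe (adjusted p = 0.0498), overlapping Wnt7acre, and lost the call in 7 leave-one-out fits (up to 0.21). Stat2, a partner of IRF9 at the ISRE, was at -1.05 in ePRAoe (SE 0.39, adjusted p = 0.111) and at 0.06 in ePRBoe (0.957). Irf9 was at -0.27 in ePRAoe (0.298) and at 0.20 in ePRBoe (0.585). Irf7, the amplifier of type I interferon, was at 0.22 (0.626) in ePRAoe and 0.65 (0.267) in ePRBoe. Irf8, a factor of myeloid cells, had 2.97, 3.37 and 2.68 FPKM in ePRBoe, 2.08, 0.819 and 1.79 FPKM in ePRAoe, and 1.31, 0.996 and 1.17 FPKM in Wnt7acre. All 3 ePRBoe libraries were above all others, and Irf8 rose by 1.11 in ePRBoe (SE 0.25, adjusted p = 0.0363, lost in 7 leave-one-out fits, up to 0.111 without ePRBoe replicate 2). The immune cell markers were higher in ePRBoe as well; their part in the Irf8 value was not tested.

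**Figure D4:**
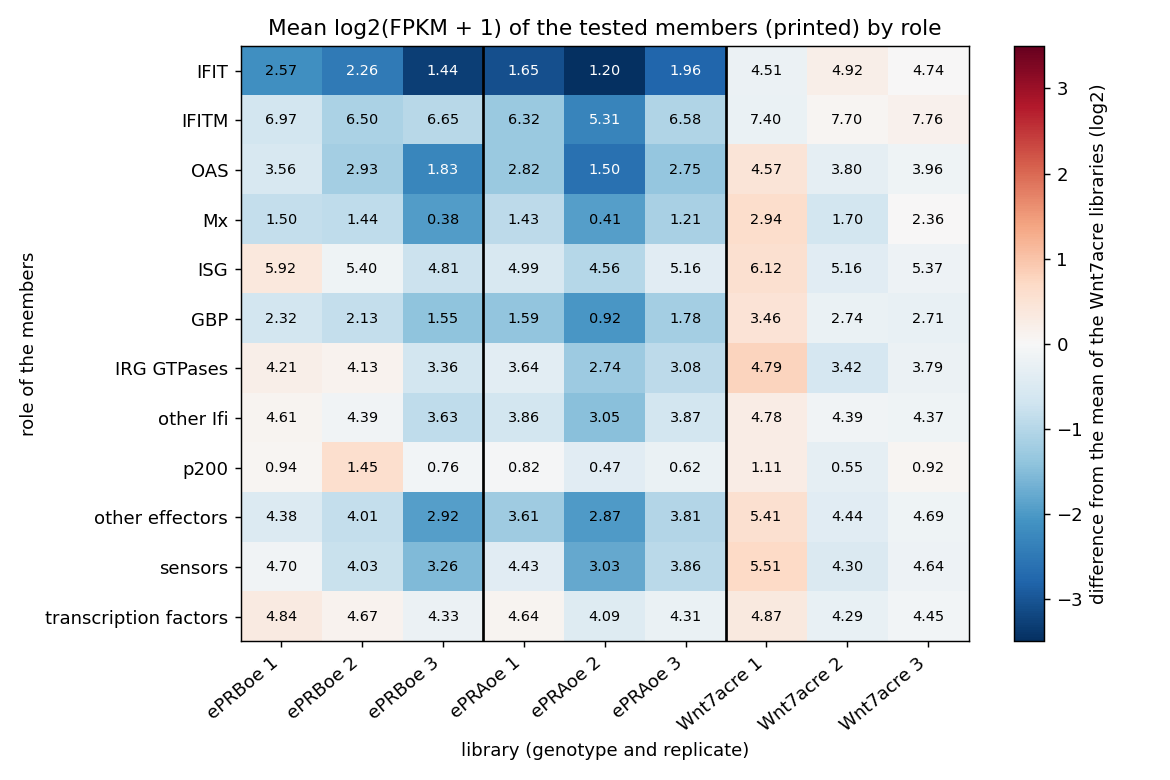
Numbers give the mean log2(FPKM + 1) of the tested members of each role (rows) in each library (columns), and the colour gives the difference from the mean of the 3 Wnt7acre libraries. The IFIT row is blue in all 6 overexpressing libraries (1.20 to 2.57, against 4.51 to 4.92 in Wnt7acre), and ePRBoe replicate 3 and ePRAoe replicate 2 are the lowest libraries of their genotypes in most rows.

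The direct comparison of ePRBoe with ePRAoe tests whether the falls differed in depth. Of the 64 members 0 passed in limma in either direction and 19 had an unadjusted p under 0.05, while 0.316% of all tested genes were called higher, 0.0081% lower and 0.324% in either direction. The members' median was 0.70, against 0.15 over all genes, and 5 of 64 were below 0, against 34.0% of all genes. With the run term, ePRBoe was set against ePRAoe largely through ePRAoe replicate 2, the only ePRAoe library of the ePRBoe run. That library was the lowest of its genotype in 52 of 64 members (81.2%, against 40.8% of all genes). Its part in the median and in the count below 0 was not tested. In 6 members all ePRBoe libraries lay above all ePRAoe libraries (16.8% of all genes), and in 1 below (5.8%). The lowest adjusted p among them were 0.0737 (Irgm2, 1.30 ± 0.24 SE), 0.0794 (Igtp, 1.33 ± 0.26), 0.0817 (Gbp2, 1.58 ± 0.31) and 0.0839 (Gbp3, 1.39 ± 0.28), 4 genes picked here for these p-values. Ifitm6 had the largest difference (2.49, SE 0.67, adjusted p = 0.13). So the larger number of falls in ePRAoe was not shown to be a difference between the isoforms for any single gene. Of 15 immune cell markers 6 passed as higher in ePRBoe than in ePRAoe (median 1.67), and all 6 were lost without ePRBoe replicate 1 (adjusted p = 0.0963 to 0.149), ePRBoe replicate 2 or ePRAoe replicate 2 (0.189 to 0.5); their part in the members' values was not tested. Without Wnt7acre replicate 1 or without ePRAoe replicate 1, the run 3 pair, 3 members passed (Gbp2 at 1.44, Ifi27 at 0.86 and Irgm2 at 1.24), and without ePRBoe replicate 3 Igtp did (1.56).

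The libraries of a genotype tended to rank alike across members. Of the 64 members 56 (87.5%) were lowest in replicate 3 among the ePRBoe libraries, against 40.5% of all genes, and 53 (82.8%) were highest in replicate 1, against 41.8%. In ePRAoe, 52 (81.2%) were lowest in replicate 2, against 40.8% of all genes. In Wnt7acre, 47 (73.4%) were highest in replicate 1, against 37.6%, and 41 (64.1%) were lowest in replicate 2, against 34.8%. The members' mean log2(FPKM + 1) was 4.12, 3.8 and 3.09 in ePRBoe replicates 1 to 3, 3.52, 2.69 and 3.46 in ePRAoe, and 4.86, 4.20 and 4.36 in Wnt7acre. All 6 overexpressing libraries were below the lowest Wnt7acre library on this mean, ePRBoe replicate 1 by the least.

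The 3 sequencing runs named in the labels divided the libraries unevenly. Run 1 held all ePRBoe libraries, ePRAoe replicate 2 and Wnt7acre replicate 3, and runs 2 and 3 held 1 library each of ePRAoe and Wnt7acre. Within each of the 3 runs the ePRAoe library was below its Wnt7acre partner in 45 of 64 members and above it in 2, while 24.4% of all genes were below and 20.8% above in all 3 runs. For Ifit3 the within-run difference in log2(FPKM + 1) was -4.64, -3.77 and -4.11, and for Rsad2 -3.91, -2.36 and -3.97. Within run 1, all 3 ePRBoe libraries were below Wnt7acre replicate 3 in 31 of 64 members (48.4%, against 28.9% of all genes) and above it in 10 (15.6%, against 44.7%). They were above ePRAoe replicate 2 in 50 members (78.1%, against 51.5%). Each run holds too few libraries for a test of its own.

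**Figure D5:**
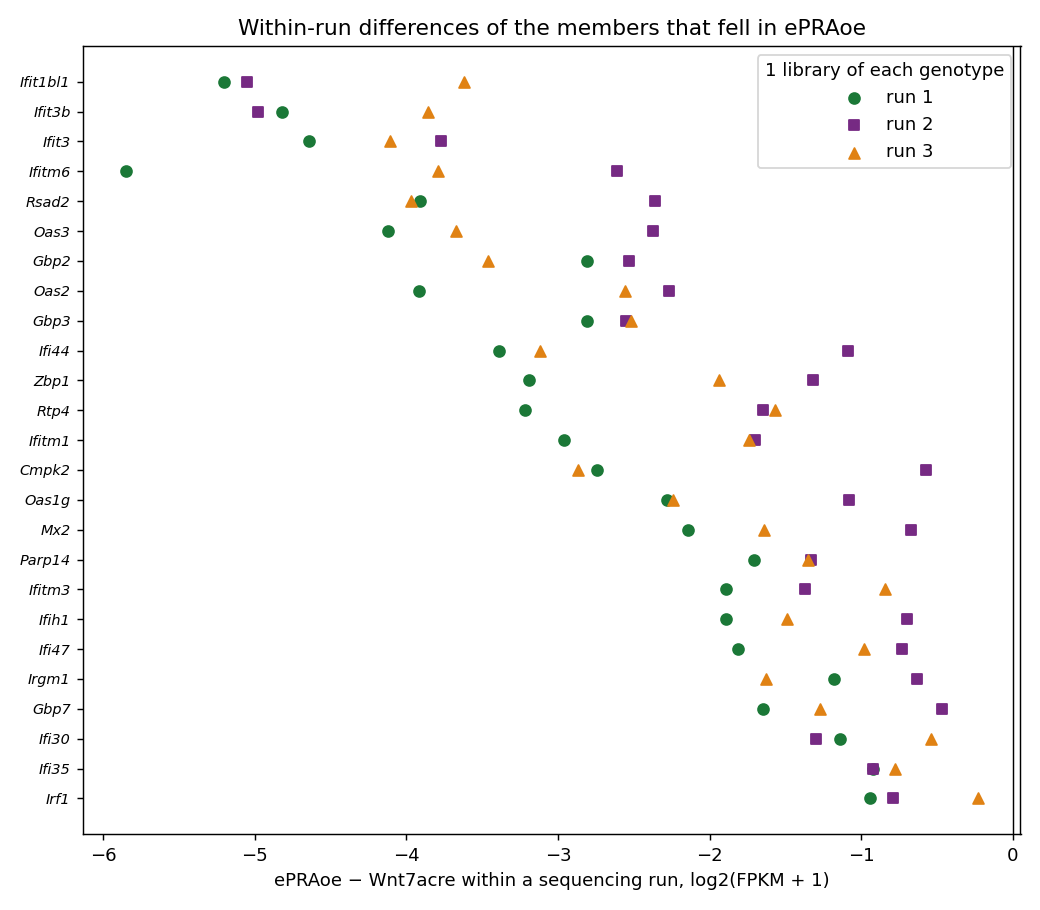
For each of the 25 members that fell in ePRAoe (rows), the horizontal axis gives ePRAoe minus Wnt7acre in log2(FPKM + 1) within run 1, run 2 and run 3, a symbol per run and 1 library of each genotype per symbol. All symbols lie left of 0, from -5.85 (Ifitm6, run 1) to -0.23 (Irf1, run 3).

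Calls differed in how much they rested on single libraries or on 1 run. With the run term, leaving out the ePRAoe or the Wnt7acre library of a run takes that run out of the ePRAoe comparison. The 2 partners of a run therefore lost nearly the same calls. Counts of lost fits given above for ePRAoe thus count such a run 2 times. With each of the 9 libraries left out in turn, 8 of the 25 falls in ePRAoe passed every time (Ifit3, Ifit3b, Ifit1bl1, Ifitm1, Ifitm6, Gbp2, Gbp3 and Rsad2). The other 17 were lost without Wnt7acre replicate 3 (adjusted p = 0.057 for Oas2 to 0.234 for Rtp4) and without ePRAoe replicate 2 (0.056 to 0.234). Fewer of the 26 calls were lost without Wnt7acre replicate 1 (12, 0.0593 to 0.111), Wnt7acre replicate 2 (15, 0.0502 to 0.183), ePRAoe replicate 1 (12, 0.0587 to 0.11) or ePRAoe replicate 3 (14, 0.0571 to 0.18). ePRBoe libraries entered through the shared spread, and 3, 12 and 1 calls were lost without ePRBoe replicates 1, 2 and 3 (0.0527 to 0.0818, 0.0509 to 0.0845, and 0.0683). Calls were also gained. Without ePRBoe replicate 3, members that passed as lower in ePRAoe included Ifit1 (0.0218), Oasl2 (0.0237), Igtp (0.0307), Isg15 (0.0428) and Stat2 (0.0491). In ePRBoe the calls lost numbered 7 without Wnt7acre replicate 3 (0.0613 to 0.344), 4 without ePRBoe replicate 2 (0.0584 to 0.111), ePRBoe replicate 3 (0.083 to 0.087) or ePRAoe replicate 2 (0.0962 to 0.127), and 1 or 2 without any other library (0.0582 to 0.0984).

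Genes upstream of the members were read against the same shares of all genes (in ePRAoe 8.98% fell and 7.2% rose). Of 21 interferon ligands on the list, the 2 in the table were Ifne and Ifnk, and the others were not analysed here. Ifne, the epithelial interferon of the reproductive tract, had 1.72, 2.29 and 8.81 FPKM in ePRBoe, 8.02, 5.04 and 3.09 FPKM in ePRAoe, and 4.81, 2.29 and 5.38 FPKM in Wnt7acre. The ranges overlap, and Ifne did not pass (-0.34, SE 0.56, adjusted p = 0.75 in ePRBoe; 0.29, SE 0.45, 0.705 in ePRAoe), nor did Ifnk (-0.20 and 0.802, -0.16 and 0.778). Of 9 receptor and kinase genes, Ifngr1, a chain of the type II interferon receptor, had 13.8, 15.1 and 15.2 FPKM in ePRBoe, 12, 12.1 and 12.2 FPKM in ePRAoe, and 17.2, 26.5 and 24.6 FPKM in Wnt7acre. It fell by 0.84 in ePRAoe (adjusted p = 0.0104; lost without replicate 2 or 3 of Wnt7acre or ePRAoe, 0.0554 to 0.0638) and was at -0.64 in ePRBoe (0.069). Jak2 and Jak1 did not pass in ePRAoe (0.27 and 0.43, -0.10 and 0.675) or in ePRBoe (0.23 and 0.636, -0.14 and 0.672). Of 11 tested inhibitors of the pathway 0 passed in limma in any comparison, Trim24 (0.35 and 0.21 in ePRAoe) among them. In ePRAoe 1 had an unadjusted p under 0.05, in ePRBoe 0 and between them 1. Over all genes 16.2% were called in either direction in ePRAoe, 8.89% in ePRBoe and 0.324% between them. A count of 0 among 11 is not far from these shares and says little about the inhibitors.

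Among 14 tested genes of nucleic acid sensing upstream of interferon, Myd88, the adaptor of Toll-like receptors, had 289, 321 and 334 FPKM in ePRBoe, 376, 323 and 192 FPKM in ePRAoe, and 195, 44.0 and 86.3 FPKM in Wnt7acre. It rose by 1.73 in ePRBoe (adjusted p = 0.0127, lost without Wnt7acre replicate 3 at 0.145) and by 1.65 in ePRAoe (0.00481, kept with any 1 library left out). Tmem173 (STING), the adaptor of DNA sensing, had 17.2, 14.5 and 10 FPKM in ePRBoe, 14.0, 6.08 and 10.1 FPKM in ePRAoe, and 29.1, 40.3 and 20.3 FPKM in Wnt7acre. It fell by 1.5 in ePRAoe (0.00683, kept with any 1 library left out), with ePRBoe at -0.50 (0.32). Trim25, the ligase that activates RIG-I, fell by 0.77 in ePRAoe (adjusted p = 0.027, lost in 5 leave-one-out fits, up to 0.135), and ePRBoe was at -0.53 (0.178).

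A list of other interferon-induced genes that the symbol rule does not reach was counted in the same way. Of 53 tested, 16 fell and 1 rose in ePRAoe (median -0.65), against 8.98% and 7.2% of all genes (median -0.03). In ePRBoe 1 fell and 0 rose (median -0.16), against 2.48% and 6.41% of all genes (median 0.10), so the falls there were no more frequent than over all genes. Slfn2, a Schlafen protein, had 7.26, 3.79 and 2.42 FPKM in ePRBoe, 6.58, 1.37 and 1.83 FPKM in ePRAoe, and 30.7, 28.3 and 18.5 FPKM in Wnt7acre. It fell by 1.82 in ePRBoe (adjusted p = 0.0448, lost in 6 leave-one-out fits, up to 0.299 without Wnt7acre replicate 3) and by 2.83 in ePRAoe (0.00382, kept). The nuclear body proteins Sp110 and Sp100 fell in ePRAoe by 1.94 (0.00682) and 2.32 (0.00828), and Ube2l6, the conjugating enzyme for ISG15, by 1.70 (0.00959); in ePRBoe they were at -0.15, -1.33 and -1.11 (0.84, 0.126 and 0.101). Plscr1, a phospholipid scramblase chosen here after its value was seen, was the 1 that rose in ePRAoe (1.58, adjusted p = 0.0138). Without Wnt7acre replicate 3 or ePRAoe replicate 2, Sp100, Ube2l6 and Plscr1 were lost (0.0617 to 0.0863). Plscr1 was also lost without Wnt7acre replicate 2 or ePRAoe replicate 3 (0.0788 each). The count of 16 falls was 4 at its lowest, without Wnt7acre replicate 3.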

How the data were processed

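RNA of laser-captured uterine luminal epithelium was sequenced in 9 libraries, 3 per genotype. The authors deposited 1 table of FPKM per gene, per the file headers; STAR 2.5.2b, featureCounts 1.5.0-p1 (Subread), edgeR 3.28.0, limma 3.42.2 and mm10 are named in the submitters' processing notes. Gene lengths and strand setting: not given in the sources used here. Hence antisense and overlapping genes cannot be told apart: 14 members overlap an exon of another gene on the opposite strand and 18 on the same strand. Read counts are not in the table; steps of 220 low genes put 1 FPKM at about 23.2 fragments for a gene of 2 kb, an approximation from which no interval was made. Libraries summed to 272213 to 314010 FPKM, with 11074 to 12300 genes at 1 FPKM or more. Rows of 4239 genes stand out of alphabetical order, 36 members among them (22 of the 27 called); all rows were used as named.

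Values were taken as log2(FPKM + 1), which understates changes of low genes. limma 3.58.1 (R 4.3.3) fitted genotype and sequencing run over all 9 libraries to 12347 genes that reached 1 FPKM in 3 or more libraries, with moderated variances that follow expression (4 residual and 3.64 prior degrees of freedom), two-sided, with Benjamini-Hochberg adjustment over all genes and a threshold of 0.05. The procedure was tested on simulated data with independent noise, no run effect and changes in ePRAoe only. It recovered 74 of 100 changes of the smaller simulated size and 97 of 100 of the larger, with 6 false calls. Genes that move together and the single run of ePRBoe were not covered. Members, lists and settings were chosen with earlier results of these data known. Members named are the 5 markers (Ifit3, Rsad2, Oas2, Ifi44, Bst2), every member called in any comparison and the highest of each role; Ifit2, Ifitm2, Isg15, Mx1, Usp18, Irgm2, Ifi27, Stat2, Irf7, Irf9 and Oas1c were added after their values were seen. Values of 2 members are not reported here; counts and medians include them. Of the other lists, up to 4 called genes with the smallest adjusted p are named, or the 2 with the highest mean where fewer than 2 were called. Promoters are RefSeq's for GRCm38.p6. Replicate numbers were not used as a pairing in the main fit.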

Additional observations from a re-analysis of the deposited data

How the results depend on the processing

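Members called in ePRAoe against Wnt7acre numbered 26. They numbered 15 with TPM scaling, 17 with no run term, and 8 (without Wnt7acre replicate 3 or ePRAoe replicate 2) to 35 (without ePRBoe replicate 3) with 1 library left out. In ePRBoe against Wnt7acre they numbered 7, and 4 with a pseudocount of 0.1, 3 with TPM scaling, 14 with no run term and 0 (without Wnt7acre replicate 3) to 8 with 1 library left out. In ePRBoe against ePRAoe they numbered 0, and 0 to 3 with 1 library left out. Over all genes, leave-one-out counts ran over 723 to 2705 in ePRAoe, 231 to 1604 in ePRBoe and 0 to 576 between them. Genes called in ePRBoe were 653 at a mean of at least 5 FPKM and 1786 with no run term, and between ePRBoe and ePRAoe 19 with no filter, 25 with TPM, 22 with median-of-ratios factors, 15 after quantile normalization and 7 with no run term. A replicate block in place of the run term gave 20 members in ePRAoe, 12 in ePRBoe and 0 between them (1113 genes in ePRAoe and 4 between them). Deviations of same-numbered libraries from their group means correlated at -0.23 to 0.171. Low correlations over so few libraries cannot decide whether the numbers are a pairing. The cause of these moves was not tested. No named member reversed its direction past the threshold in any setting run.

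Median-of-ratios factors and quantile normalization put the median of all genes in ePRBoe at -0.033 and -0.028, where the main scaling gave 0.101, and between ePRBoe and ePRAoe at -0.02 and -0.033, where it gave 0.151. Relative to that shift the members' median in ePRBoe was -0.48 in the main scaling, -0.48 and -0.54 in the others; the IRG GTPase median in ePRBoe (0.07) was below 0 in both and that of the other Ifi genes (0.11) with median-of-ratios factors. Values near 1 FPKM rest on few fragments, so the order of ePRBoe and ePRAoe among members at that level is not firm.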
